A study of Homo sapiens with 3 samples.

Results

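Complex I of the respiratory chain is built from subunits of both genomes, and 7 of its subunits are coded by the mitochondrial chromosome: MT-ND1, MT-ND2, MT-ND3, MT-ND4, MT-ND4L, MT-ND5 and MT-ND6. Their mRNAs were followed in Molm13 cells, a human acute myeloid leukemia line with an internal tandem duplication of FLT3, after 6 h with the vehicle DMSO, with 50 nM pyrvinium or with 100 nM pyrvinium, an anthelmintic dye reported to act on mitochondria. The 7 genes were taken by their Entrez identifiers, from 4535 (MT-ND1) to 4541 (MT-ND6), out of 25702 genes listed for each library, 15 of which lie on chrM. All 7 were found and passed the count minimum, so none was left out. Each condition was a single RNA-seq library. The study gives a single culture medium for the line and describes no synchronisation of the cells. The libraries held 23165771 counts (DMSO), 22677038 counts (50 nM) and 24075123 counts (100 nM). With 1 library per condition there is no replicate spread and no test. Every interval given is a 95% interval of counting error alone, and each difference is one between libraries.

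The RNA was of the myeloid type of the labelled line, but no feature particular to Molm13 was examined. The 10 markers of this myeloid leukemia (FLT3, CD33, MPO, LYZ, SPI1, CEBPA, HOXA9, MEIS1, PTPRC and CSF3R) had between 291 counts (MPO in DMSO) and 11181 counts (FLT3 at 100 nM). Of the 10 markers of T cells, B cells, erythroid, epithelial and fibroblast cells, none exceeded 26 counts in any library (CD3D in DMSO), and CD3E and EPCAM had 0 counts in all 3.

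Complex I takes electrons from NADH, passes them to ubiquinone and pumps protons across the inner mitochondrial membrane. Its mitochondrially coded subunits form the core of the membrane arm, where MT-ND2, MT-ND4 and MT-ND5 resemble antiporters and move protons, MT-ND1 lines the ubiquinone pocket, and MT-ND3, MT-ND4L and MT-ND6 join that pocket to the pumping subunits. The core of the arm that oxidises NADH is coded in the nucleus, together with all accessory subunits. Both strands of the mitochondrial chromosome are transcribed into long precursor RNAs, which are cut into single RNAs mostly at the tRNAs between the genes. Of the complex I genes, only MT-ND6 is read from the light-strand promoter.

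On the map, MT-ND1 (chrM:3307-4262), MT-ND2 (chrM:4470-5511), MT-ND3 (chrM:10059-10404), MT-ND4L (chrM:10470-10766), MT-ND4 (chrM:10760-12137) and MT-ND5 (chrM:12337-14148) lie on the plus strand, and MT-ND6 (chrM:14149-14673) on the minus strand. The deposited tables place the genes in hg19, at the same positions as the GENCODE genes on GRCh37, whose chrM is 16569 bases long. Each gene is 1 coding exon with no intron. The last 30 bases of each listed gene are shown because the ends of the 7 genes differ. They are given 5′ to 3′ on the gene's own strand from GRCh37, with the letters of the stop codon, whole or in part, in capitals, and for MT-ND6 the last codon listed.
MT-ND1, chrM:4233-4262, plus strand: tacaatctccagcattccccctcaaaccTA
MT-ND2, chrM:5482-5511, plus strand: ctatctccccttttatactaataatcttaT
MT-ND3, chrM:10375-10404, plus strand: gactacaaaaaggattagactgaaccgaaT
MT-ND4L, chrM:10737-10766, plus strand: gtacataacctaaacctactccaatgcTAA
MT-ND4, chrM:12108-12137, plus strand: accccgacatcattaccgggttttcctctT
MT-ND5, chrM:14119-14148, plus strand: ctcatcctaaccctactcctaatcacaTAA
MT-ND6, chrM:14149-14178, minus strand: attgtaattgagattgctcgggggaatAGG
In MT-ND1, MT-ND2, MT-ND3 and MT-ND4 the chromosome holds only the start of the stop codon, which the poly(A) tail is known to complete. MT-ND4L and MT-ND5 carry a whole stop codon, and the listed MT-ND6 ends in AGG. MT-ND6 also stood apart in base composition: G made up 35.6% of its bases, against 9.50% (MT-ND2) to 12.1% (MT-ND4L) in the other 6 genes read on their own strand.

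At 2 places the genes meet without a tRNA between them. MT-ND4L and MT-ND4 are read from a single mRNA and share 7 bases, in capitals in the first sequence (GRCh37, plus strand). MT-ND5 and MT-ND6 end tail to tail on opposite strands with no base between them. In the second sequence, also plus strand, capitals mark the bases that belong to MT-ND6 on the other strand.
MT-ND4L and MT-ND4, chrM:10730-10796: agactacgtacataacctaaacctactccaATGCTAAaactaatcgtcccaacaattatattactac
MT-ND5 and MT-ND6, chrM:14119-14178: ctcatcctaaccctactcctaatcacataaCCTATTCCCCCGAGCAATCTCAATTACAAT
The mature MT-ND5 mRNA is known to run on past its reading frame, opposite MT-ND6. The library kit marked the strand, but whether the counting used it is not given in the sources used here. Without it, RNA from opposite MT-ND6 would be counted as MT-ND6, and its part in the MT-ND6 values was not tested.

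At 100 nM, MT-ND5 fell 2.27-fold against DMSO, 5 other complex I mRNAs were lower by smaller amounts, and MT-ND6 was 37.6% higher. At 50 nM all 7 were lower, MT-ND5 by the widest margin. MT-ND5 was the only member past the 2-fold threshold at 100 nM (1 of 7), and no member passed it at 50 nM or between the doses (0 of 7 each). Of the 12879 genes tested, those that reached 10 counts in any library, 3.84% passed 2-fold at 100 nM, 2.7% at 50 nM and 1.96% between the doses. Few of those were deeply counted. In the 4986 genes whose mean over the libraries reached 1000 counts, to which all members belong, the shares were 0.321% (16 genes), 0.0401% and 0.0201%. In bulk RNA, fewer cells that make an mRNA and less of it per cell cannot be told apart.

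Levels of the members were compared as counts per kb of gene per 1000000 scaled counts, called the normalised level. In DMSO the order was MT-ND4, MT-ND1, MT-ND4L, MT-ND2, MT-ND5, MT-ND3 and MT-ND6, from 4132 down to 756. At 100 nM the order was MT-ND4, MT-ND1, MT-ND4L, MT-ND2, MT-ND6, MT-ND3 and MT-ND5, from 3204 down to 799. The 4 most abundant mRNAs thus kept their places, while MT-ND5 went from place 5 to place 7 and MT-ND6 from place 7 to place 5. Neighbours in both orders differed by more than their counting intervals. These intervals leave out the capture of poly(A) RNA and reads that also match nuclear chromosomes, whose parts in the order were not tested. The closest pair at 100 nM was MT-ND6 at 1041 (1023 to 1059) and MT-ND3 at 983 (962 to 1004).

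**Figure D1:**
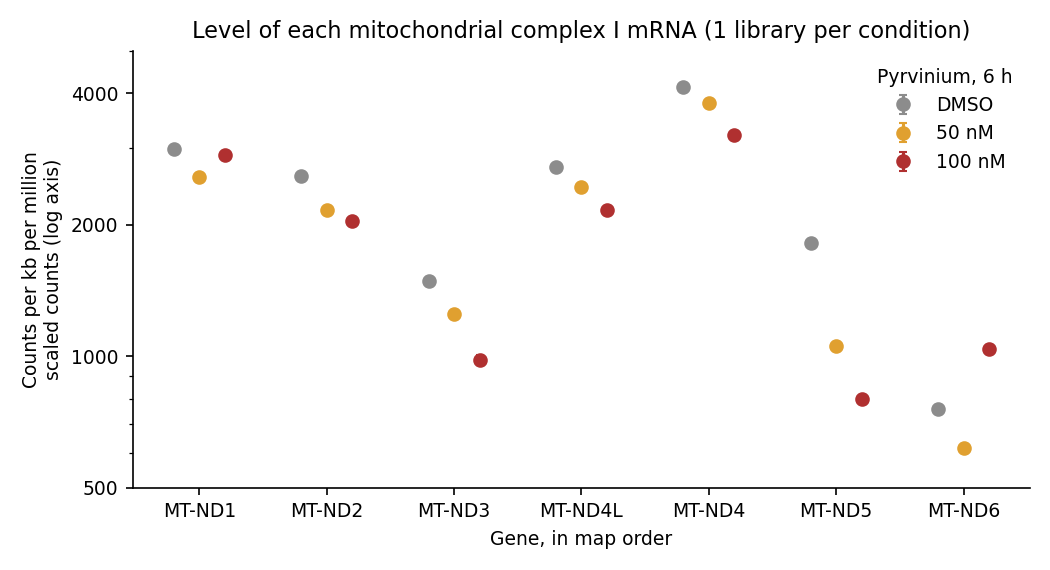
Level of each of the 7 mRNAs (normalised level, counts per kb per 1000000 scaled counts, log axis) in the DMSO, 50 nM and 100 nM libraries, with genes in map order and 95% Poisson intervals that are mostly narrower than the points. MT-ND5 steps down from 1814 to 1058 and 799, whereas MT-ND6 is at 756, 616 and 1041.

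MT-ND5, the pumping subunit at the far end of the membrane arm, showed the largest difference of the 7 mRNAs at either dose. It had 76054 counts in DMSO, 43481 at 50 nM and 34880 at 100 nM, or normalised levels of 1814, 1058 and 799. Each increase in dose thus went with a lower level. The log2 ratio against DMSO was -1.18 (-1.20 to -1.17) at 100 nM and -0.78 (-0.79 to -0.76) at 50 nM, and the step from 50 to 100 nM was -0.41 (-0.43 to -0.39). The larger part of the difference at 100 nM was present at 50 nM. Ordered by log2 ratio among the 4986 deeply counted genes, MT-ND5 was at place 1 from the lowest at 100 nM, place 2 at 50 nM and place 1 in the step between the doses.

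MT-ND2 and MT-ND4, the other antiporter-like subunits, were lower by less. MT-ND2 had normalised levels of 2588, 2157 and 2042 in DMSO, 50 nM and 100 nM (62401, 50981 and 51286 counts), and log2 ratios of -0.26 (-0.28 to -0.25) at 50 nM and -0.34 (-0.36 to -0.32) at 100 nM. Most of its difference was therefore present at the lower dose. MT-ND4, the most abundant of the 7, had normalised levels of 4132, 3793 and 3204 (131739, 118538 and 106411 counts), with log2 ratios of -0.12 (-0.13 to -0.11) and -0.37 (-0.38 to -0.36). Here the step between the doses, -0.24 (-0.26 to -0.23), was larger than the first difference.

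MT-ND1, the subunit at the ubiquinone pocket, was nearly level with DMSO at 100 nM. Its normalised levels were 2985, 2567 and 2881 in DMSO, 50 nM and 100 nM (66032, 55645 and 66378 counts), with log2 ratios of -0.22 (-0.23 to -0.20) at 50 nM and -0.05 (-0.07 to -0.04) at 100 nM. The 50 nM library was the low one, and the step from 50 to 100 nM was 0.17 (0.15 to 0.18).

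MT-ND3 and MT-ND4L are small subunits between the pocket and the pumps. MT-ND3 had normalised levels of 1487, 1250 and 983 (11908, 9808 and 8196 counts), with log2 ratios of -0.25 (-0.29 to -0.21) at 50 nM and -0.60 (-0.64 to -0.56) at 100 nM. After MT-ND5 it was the lowest member at 100 nM, at place 35 from the lowest of the 4986 deeply counted genes. MT-ND4L had normalised levels of 2709, 2440 and 2160 (18616, 16437 and 15464 counts), with log2 ratios of -0.15 (-0.18 to -0.12) and -0.33 (-0.36 to -0.30). Both were lowest in the 100 nM library.

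MT-ND6, the member on the minus strand, was the least abundant of the 7 in DMSO and the only one above DMSO at 100 nM. Its normalised levels were 756, 616 and 1041 in DMSO, 50 nM and 100 nM (9188, 7332 and 13170 counts). The 50 nM library was thus the lowest and the 100 nM library the highest. The log2 ratio was -0.30 (-0.34 to -0.25) at 50 nM, 0.46 (0.42 to 0.50) at 100 nM and 0.76 (0.72 to 0.80) between the doses. In the step between the doses it was at place 4 from the highest of the 4986 deeply counted genes, behind, among others, both mitochondrial rRNAs at places 1 (MT-RNR1) and 2 (MT-RNR2).

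The mitochondrial rRNAs were above DMSO together with MT-ND6 at 100 nM, and unlike it also at 50 nM. MT-RNR1, the small-subunit rRNA, had 15742 counts in DMSO, 26577 at 50 nM and 67427 at 100 nM, and rose at 100 nM with a log2 ratio of 2.04 (2.01 to 2.07), after 0.78 at 50 nM. MT-RNR2, the large-subunit rRNA, had 144258, 166105 and 315015 counts and rose at 100 nM with a log2 ratio of 1.07 (1.06 to 1.08), after 0.23 at 50 nM. Together they were 0.691%, 0.850% and 1.59% of all counts in the 3 libraries. MT-ND6 mRNA is known to carry little or no poly(A) tail and the rRNAs only short ones, while the libraries were made with a kit that captures poly(A) RNA. The part of this capture in the MT-ND6 and rRNA values was not tested.

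The comparison by strand was made within each library, as the ratio of MT-ND6 counts to the summed counts of the 6 plus-strand members, so that library scaling has no part in it. At 100 nM this ratio was 1.86 times that in DMSO (1.81 to 1.91), and at 50 nM it was 0.992 times (0.962 to 1.02), an interval that includes no difference. What differed at 100 nM was thus 1 minus-strand mRNA against the sum of 6 plus-strand mRNAs. The plus-strand rRNAs, at log2 ratios of 2.04 and 1.07, were above MT-ND6. Taken gene by gene at 100 nM, the ratio of MT-ND6 to MT-ND5 stood highest, at 3.13 times that in DMSO (3.03 to 3.22), and its ratio to MT-ND1 lowest, at 1.43 times (1.39 to 1.47). At 50 nM the ratio to MT-ND5 was 1.40 times (1.35 to 1.44) and that to MT-ND4 0.887 times (0.859 to 0.916), so the sum at this dose averages ratios on both sides of 1. The 8 tRNA genes of the light strand were not analysed here.

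By position, the plus-strand mRNAs did not form a single gradient. The rRNAs MT-RNR1 and MT-RNR2, which lie before MT-ND1 on the same strand, were at 2.04 and 1.07 at 100 nM. Away from MT-ND1, whose log2 ratio at 100 nM was -0.05, the values in map order were -0.34 for MT-ND2, -0.31 for MT-CO1, -0.34 for MT-CO2, -0.57 for MT-ATP8, -0.67 for MT-ATP6 and -0.97 for MT-CO3. From there they were less negative, at -0.60 for MT-ND3, -0.33 for MT-ND4L and -0.37 for MT-ND4, and then lower again, at -1.18 for MT-ND5 and -0.99 for MT-CYB. The lowest values thus lay in 2 stretches, around MT-CO3 and from MT-ND5 to MT-CYB, with MT-ND4L and MT-ND4 between them. The 50 nM library, compared with the same DMSO library, gave -0.65 for MT-CO3, -0.15 for MT-ND4L, -0.12 for MT-ND4, -0.78 for MT-ND5 and -0.59 for MT-CYB.

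**Figure D2:**
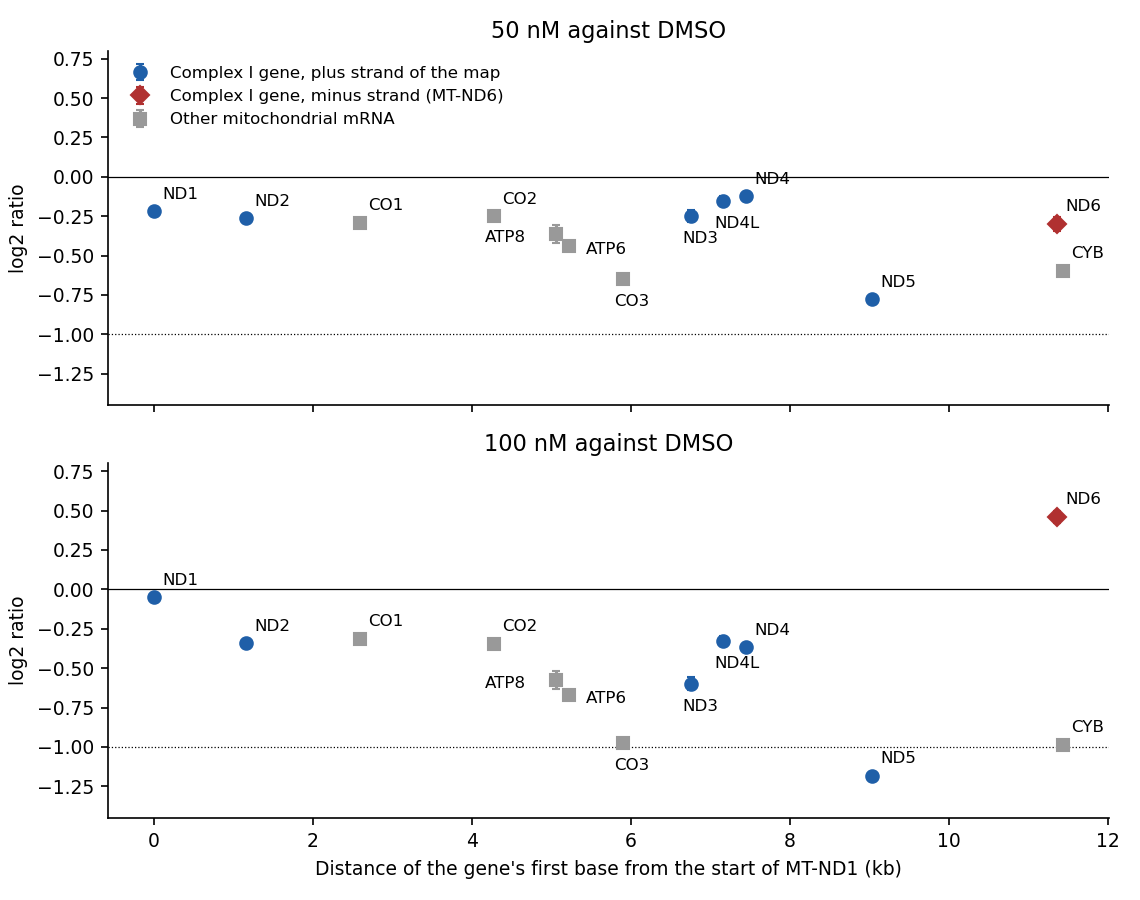
Log2 ratio of each of the 13 mitochondrial mRNAs against DMSO at 50 nM (top) and 100 nM (bottom), plotted by the distance in kb of the gene's first base from the start of MT-ND1, with 95% counting intervals and a dotted line at 2-fold lower. MT-ND5 and MT-CYB at the right and MT-CO3 in the middle are lowest, and MT-ND6 is above 0 only at 100 nM, at 0.46.

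The same counts were also set out as ratios within libraries, which need no scaling and are not separate support. Against MT-ND1, the level of MT-ND5 at 100 nM was 0.456 times that in DMSO (0.449 to 0.464), that of MT-ND3 0.685 times (0.664 to 0.706), and those of MT-ND2, MT-ND4L and MT-ND4 were between 0.804 and 0.826 times. At 50 nM MT-ND5 was at 0.678 times (0.667 to 0.690), while MT-ND4 was slightly above its DMSO ratio to MT-ND1, at 1.07 times (1.05 to 1.08). MT-ND5 stood apart from MT-ND4, the gene before it among the mRNAs of its strand, at 0.568 times (0.559 to 0.576) at 100 nM. It was closer to MT-CYB, the cytochrome b mRNA that follows, at 0.873 times (0.856 to 0.890).

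MT-ND4L and MT-ND4, which share an mRNA, were compared as a ratio within each library. The ratio of MT-ND4 to MT-ND4L was 1.02 times that in DMSO at 50 nM (0.996 to 1.04) and 0.972 times at 100 nM (0.95 to 0.995). Between the doses it was 0.954 times (0.932 to 0.977), the widest of the 3 differences. Per kb, however, MT-ND4L was counted below MT-ND4 in every library, at 2709 against 4132 in DMSO. How reads over the 7 shared bases were assigned is not given in the sources used here.

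These differences altered the make-up of the complex I counts of the chromosome. MT-ND5 supplied 20.2% of the summed counts of the 7 genes in DMSO (20.1% to 20.4%, Wilson), 14.4% at 50 nM (14.3% to 14.5%) and 11.8% at 100 nM (11.7% to 11.9%). MT-ND6 supplied 2.44%, 2.43% and 4.45%, and MT-ND1 17.6%, 18.4% and 22.4%. MT-ND4 was the largest share throughout, at 35.0%, 39.2% and 36.0%. MT-ND5 was therefore the second largest contributor in DMSO and the fourth at both doses, behind MT-ND4, MT-ND1 and MT-ND2.

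**Figure D3:**
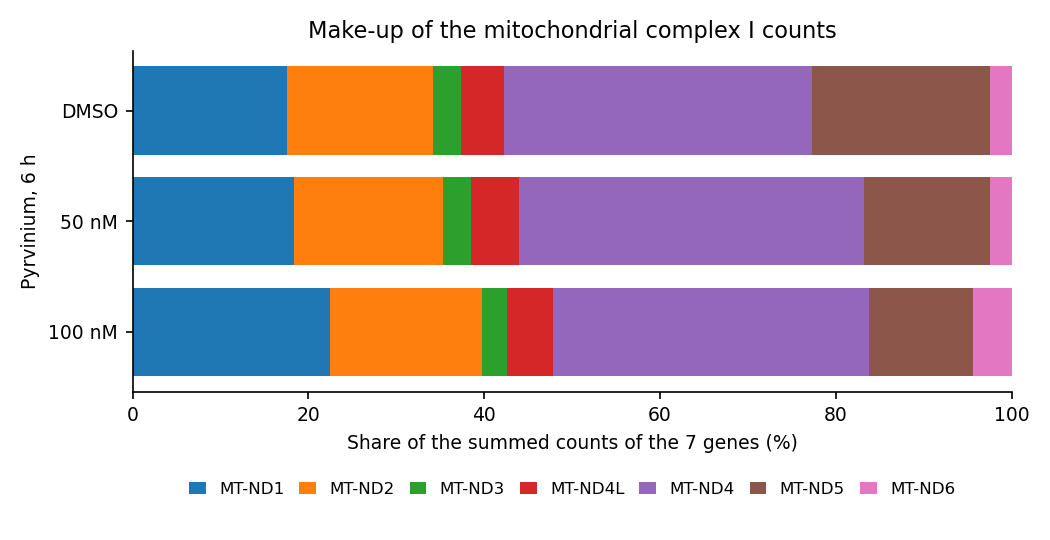
Share of the summed counts of the 7 genes that each gene supplied (percent, not corrected for gene length) in the DMSO, 50 nM and 100 nM libraries. The MT-ND5 segment narrows from 20.2% to 14.4% and 11.8%, and the MT-ND6 segment is widest at 100 nM, at 4.45%.

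As a sum, the 7 mRNAs were lower at both doses, mostly between DMSO and 50 nM. They had 375938 counts in DMSO, 302222 at 50 nM and 295785 at 100 nM, which were 1.62%, 1.33% and 1.23% of all counts. The log2 ratio of the sum was -0.29 (-0.29 to -0.28) at 50 nM and -0.40 (-0.41 to -0.40) at 100 nM. The other 6 mitochondrial mRNAs, of complexes III and IV and ATP synthase, were lower still as a sum, so that the complex I share of the 13 mRNAs was 33.1%, 34.8% and 34.9%. Their median log2 ratio was -0.62 at 100 nM and -0.40 at 50 nM, against -0.34 and -0.25 for the 7 complex I genes, although MT-CO1 at -0.31 and MT-CO2 at -0.34 were not below the complex I sum at 100 nM. None of these 6 passed 2-fold at 100 nM (0 of 6), with MT-CYB nearest, at 1.98-fold lower. Most genes did not pass either, since 3.84% of all genes tested and 0.321% of the 4986 deeply counted genes did.

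The nuclear complex I subunits served as the reference for the same enzyme. At 100 nM the 37 nuclear subunits had a median log2 ratio of -0.08 (range -0.43 to 0.25) and at 50 nM of -0.02. None passed 2-fold at either dose, like most of the genes tested. Of the 37, 32 were lower and 5 higher at 100 nM, and 22 and 15 at 50 nM. All genes tested were split more evenly, with 6529 lower and 6350 higher at 100 nM, and 6560 and 6319 at 50 nM. The 7 mitochondrial subunits had medians of -0.34 and -0.25, and the 12879 genes tested of -0.0042 and -0.0047. Summed over each list, the ratio of mitochondrial to nuclear complex I counts was 4.81 in DMSO, 3.95 at 50 nM and 3.81 at 100 nM. Relative to DMSO this was 0.820 times at 50 nM (0.811 to 0.829) and 0.793 times at 100 nM (0.784 to 0.801), with a small step of 0.966 times between the doses (0.956 to 0.977). Per kb, the mitochondrial genes were counted far above the nuclear ones in every library, with median normalised levels of 2588 and 86.9 in DMSO.

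Of the members, 6 of 7 had an interval wholly below 0 at 100 nM, 7 of 7 at 50 nM and 5 of 7 in the step between the doses. Such intervals are narrow for deeply counted genes and were common: 38.4% of the 4986 deeply counted genes had one at 100 nM, 27.9% at 50 nM and 24.7% between the doses. The middle of those genes by log2 ratio lay between -0.15 and 0.11 at 100 nM (quartiles). MT-ND1, at -0.05, was inside that range, and the other 6 members were outside it. Of the 37 nuclear subunits, 17 had an interval below 0 and 2 above 0 at 100 nM, and 5 and 3 at 50 nM. Of all genes tested, 25.5% had one below and 23.8% one above 0 at 100 nM, and 19.2% and 17.9% at 50 nM. Of the 4986 deeply counted genes, 1496 had one above 0 at 100 nM and 1300 at 50 nM, but only 28 of the 37 nuclear subunits had at least 1000 counts in every library.

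Among the 7 nuclear core subunits, which carry the flavin, the iron-sulfur clusters or the ubiquinone site of the matrix arm, the lowest log2 ratio at 100 nM was that of NDUFS8, an iron-sulfur protein, at -0.27 (-0.40 to -0.14). Its counts were 1010 (DMSO), 953 (50 nM) and 874 (100 nM). NDUFS3 was at -0.13, NDUFV2 at -0.07, NDUFS1 at -0.05, NDUFS7 at -0.02 and NDUFV1, the flavin-binding subunit, at 0.01. These 6 were thus closer to 0 than MT-ND2, MT-ND3, MT-ND4, MT-ND4L and MT-ND5. Of the accessory subunits with at least 100 counts in each library, NDUFB10 was lowest at -0.43 (-0.54 to -0.32), followed, after NDUFS8, by NDUFA8 at -0.24 (-0.35 to -0.13). The highest were NDUFS4 at 0.25 (0.15 to 0.36), NDUFB5 at 0.20 (0.12 to 0.29) and NDUFA13 at 0.08 (-0.0027 to 0.16).

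Factors that act on complex I or on mitochondrial RNA or DNA were taken from 2 further lists. The 18 assembly factors of complex I had a median log2 ratio of -0.04 at 100 nM, with 11 lower and 7 higher, and of 0.01 at 50 nM, with 8 lower and 10 higher. NDUFAF5 at -0.33 and NDUFAF8 at -0.25 were lowest, and ECSIT at 0.22 and NUBPL at 0.17 highest. The 22 factors of the second list act mostly in mitochondrial transcription and RNA processing, but MGME1 among them acts on mitochondrial DNA. The 22 had median log2 ratios of -0.07 at 50 nM and -0.06 at 100 nM. MGME1 was at -0.21 and -0.27. At each dose 18 of them were lower and 4 higher, while of all genes tested 6529 were lower and 6350 higher at 100 nM, and 6560 and 6319 at 50 nM. At each dose 9 of the 22 had an interval below 0 and 2 above, beside the 38.4% of deeply counted genes below 0 at 100 nM and 27.9% at 50 nM. None of the 18 or the 22 passed 2-fold at 100 nM, as was the case for most genes, since 3.84% of the tested genes did. SLIRP, an RNA-binding protein that stabilises mitochondrial mRNAs, was at -0.37 (-0.46 to -0.28) and FASTKD5, needed to process mRNA ends without a tRNA, also at -0.37 (-0.46 to -0.28), with 121 of its bases shared with another listed gene. LRPPRC, the binding partner of SLIRP, was highest at 0.16 (0.13 to 0.19), followed by TBRG4 at 0.12 (0.05 to 0.18).

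For each member, the most similar genes were found among 4703 other genes with at least 1000 counts in every library, by the distance between their pairs of log2 ratios at 50 nM and 100 nM. The nearest to MT-ND5 were mitochondrial: MT-CO3 at a distance of 0.248 and MT-CYB at 0.268. For MT-ND6 they were MALAT1, a nuclear long noncoding RNA, at 0.203 and XBP1 at 0.305. The 2 nearest genes of each of the other 5 members were at most 0.0291 away. These were IRGQ and MIF for MT-ND1, MFAP1 and PKMYT1 for MT-ND2, CPT1A and ARL6IP5 for MT-ND3, TXNDC17 and STAT6 for MT-ND4L, and SLIRP and PNP for MT-ND4.

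Nuclear chromosomes hold copies of mitochondrial sequence, and a read from such a stretch matches both places. Of all 75-base windows of each gene, the read length of the study, 34.4% of MT-ND2, 17.1% of MT-ND1, 7.10% of MT-ND6 and 0.173% of MT-ND5 occur unaltered in a nuclear chromosome of GRCh37, and none of MT-ND3, MT-ND4L or MT-ND4 do. Copies that differ by 1 or more bases were not searched for. How reads with several matches were counted is not given in the sources used here, and the values of genes with such windows are uncertain to that extent. Of the other mitochondrial mRNAs, the share was 36.6% for MT-CO1, 28.0% for MT-ATP6, 14.9% for MT-CO3 and 10.5% for MT-CO2, and no window of MT-ATP8 or MT-CYB was found.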

How the data were processed

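Total RNA of Molm13 cells was made into 1 stranded mRNA library per condition, and paired reads of 75 bases were aligned to hg19 by the authors with Rsubread. Each deposited table holds raw counts per gene as whole numbers. A table of the authors' EBSeq comparisons (posterior probabilities and fold changes) was not used, nor were its 4 columns of condition means. The labels once write the higher dose without its prefix; the 100 nM of the title was used. Libraries were scaled with edgeR 4.0.16 (TMM, R 4.3.3), with 0.5 counts added for log2 ratios. Count ratios have exact conditional (Clopper-Pearson) intervals, ratios within libraries exact conditional (Fisher) ones, levels Poisson and shares Wilson ones (scipy 1.17.1), all at 95% and for counting error only. Scripts were tested on simulated data. A difference was called at 2-fold, without p-values. Alternatives were total counts, DESeq2 1.42.0 size factors, TMM without mitochondrial genes, 5 added counts, 1.5-fold and other count minimums.

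The members and lists were chosen with earlier results of these data known. Named were all members and mitochondrial mRNAs and rRNAs, the nuclear core subunits (1 of the 7 is not reported here), the 3 highest and 3 lowest nuclear subunits, the 2 highest and 2 lowest of the other lists (at least 100 counts in each library), and the 2 genes nearest to each member. Of 25702 genes, 23696 had a symbol, and nuclear symbols came from RefSeq. NDUFA4, now counted with complex IV, was left out of the nuclear list. MGME1, outside this naming rule, was named for its function.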

Additional observations from a re-analysis of the deposited data

Results flagged for a closer look

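MT-ND6 moved in opposite directions against DMSO at the 2 doses, below it at 50 nM (log2 ratio -0.30) and above it at 100 nM (0.46), which is a log2 difference of 0.76 between the doses (0.72 to 0.80, counting error only). With 1 library per dose, the difference was not tested.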

How the results depend on the processing

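The 21 log2 ratios of the members (7 genes, 3 comparisons) were recomputed with DESeq2 size factors, total counts, TMM without mitochondrial genes and 5 added counts. All 84 values were inside the main counting interval, and the largest shift was 0.00325. At 1.5-fold in place of 2-fold, 2 members instead of 1 passed at 100 nM, 1 instead of 0 at 50 nM and 1 instead of 0 between the doses. Of all genes tested, 11.9%, 7.88% and 5.71% passed 1.5-fold in these comparisons, and of those with a mean of at least 1000 counts 1.99%, 0.401% and 0.120%. The share of all genes past 2-fold depended on the count minimum. With no minimum it was 15.5% at 100 nM, 14.5% at 50 nM and 14.2% between the doses, against 3.84%, 2.7% and 1.96%. With at least 1000 counts in every library it was 0.233%, 0% and 0.0212%, and with a mean of at least 1000 counts, a setting chosen after seeing the data, 0.321%, 0.0401% and 0.0201%. Without the 2 mitochondrial rRNAs in the total, the member share of counts was 1.63% in DMSO, 1.34% at 50 nM and 1.25% at 100 nM, higher by construction. With NDUFA4 added, the nuclear median was -0.09 at 100 nM and -0.03 at 50 nM, and with only nuclear subunits of at least 1000 counts -0.07 and -0.0069. The mitochondrial to nuclear ratio in DMSO was then 4.59 and 5.27 in place of 4.81, while its values relative to DMSO were inside their counting intervals. No paired analysis was possible because each condition had 1 library, so there is no replicate spread, and all intervals hold counting error only.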
